A study of Danio rerio with 12 samples.

Results

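A set of 10 genes of sphingolipid metabolism were followed in zebrafish liver, chosen by symbol from the 32520 genes of the deposited table: smpdl3a, cers3a, cers2a, cers2b, smpd1, asah1a, asah1b, sptlc1, sgms1 and ugcg. All 10 were found with 1 identifier each. The 12 libraries came from wild-type adults of the TU strain aged 4 months, exposed over 28 days to 10 µg/L of bisphenol AF (BPAF), a fluorinated bisphenol used in plastics, while control fish received 0.0001% dimethyl sulfoxide (DMSO), a solvent. They form 4 groups of 3 libraries, namely control males (male DMSO), exposed males (male BPAF), control females (female DMSO) and exposed females (female BPAF), to ask how the sexes differ in the response of the liver. No DMSO level was found for the exposed fish, and the labels do not say whether a library was made from 1 animal or a pool, so the p-values rest on the spread among libraries, some or all of which may be technical.

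Sphingolipids are membrane lipids built on a long-chain base. Serine palmitoyltransferase starts their synthesis, ceramide synthases attach a fatty acid to give ceramide, and ceramide is passed on to sphingomyelin by sphingomyelin synthase or to glucosylceramide by glucosylceramide synthase. In the lysosome, acid sphingomyelinase returns sphingomyelin to ceramide and acid ceramidase splits ceramide into sphingosine and a fatty acid. In mouse liver, ceramides with very long acyl chains made by ceramide synthase 2 are a major form.

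Values are TPM, a transcript abundance relative to gene length and to the library total. Over the 11389 genes tested, the median log2 difference was -0.52 between control females and control males and -0.78 between exposed females and exposed males. With trimmed-mean scaling, which sets the bulk of genes equal, these medians became -0.10 and -0.01. Differences between the sexes are therefore given under both scalings where they part. Genes were tested with limma on log2(TPM + 1) where TPM reached 1 in at least 3 libraries, and a gene passed where its Benjamini-Hochberg adjusted p was under 0.05. Of the 10 members, 7 met this filter. The genes smpdl3a and cers3a were picked for their pattern over these libraries, so their values are a description with no test, which leaves 5 tested members. The dissected tissue carried liver transcripts in every library: the 12 measured hepatocyte markers summed to between 140915 and 210336 TPM in males and between 54459.9 and 70968 TPM in females. These sums are as deposited and were not scaled. In bulk tissue, fewer cells of a type, less RNA per cell and more RNA of other genes cannot be told apart.

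The gene with the widest range was smpdl3a (ENSDARG00000053119). It encodes a relative of acid sphingomyelinase that in humans cleaves nucleotides, cyclic GMP-AMP included, and that is induced by the oxysterol receptor LXR in human macrophages. In control males it stood at 44.97, 93.44 and 137.95 TPM. In exposed males it stood at 29.95, 80.26 and 16.28 TPM. These groups overlapped, with 1 exposed male inside the range of the controls. No label states a pairing, but same-numbered males deviated together over all tested genes. Taken by replicate number, as a description, the exposed library was the lower in each of the 3 pairs.

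Control females had 0.59, 0.81 and 1.16 TPM of smpdl3a. Exposed females had 22.04, 13.49 and 4.85 TPM, so every exposed female lay above every control female. The lowest exposed male, at 16.28 TPM, lay below the highest exposed female, at 22.04 TPM, so the sexes overlapped after exposure but not among the controls. Among all tested genes, 2.35% were higher without overlap in exposed than in control females. Between the controls, 40.8% were lower without overlap in females. Nothing is read from these shares, since smpdl3a was picked for its pattern.

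**Figure D1:**
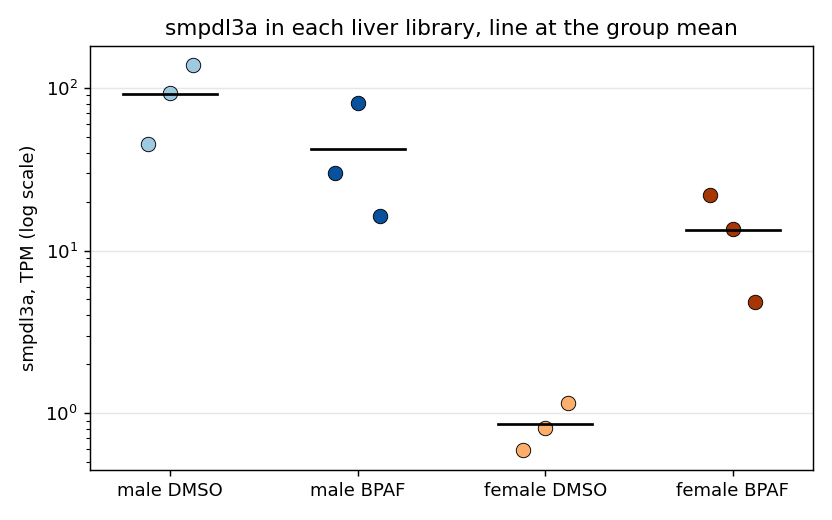
TPM of smpdl3a on a log axis, with 1 point for each of the 12 libraries and a line at each group mean. Control females lie at about 1 TPM, exposed females between 4.85 and 22.04 TPM, and all males at 16.28 TPM or more.

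The group means of smpdl3a were 92.1 ± 46.5 TPM in control males, 42.2 ± 33.7 in exposed males, 0.853 ± 0.287 in control females and 13.5 ± 8.60 in exposed females (SD, n = 3 each). The ratio of means was 108 between control males and control females, and 3.13 between exposed males and exposed females. On the log2(TPM + 1) scale exposed females differed from exposed males by -1.49 ± 0.61 as deposited (SE), by -0.43 after trimmed-mean scaling and by -0.46 after quantile normalization. Exposed females had 15.8 times the mean of control females, and exposed males 0.458 times that of control males. The ratios of 108 and 15.8 rest on the low level of control females, which is limited by an unknown depth. On the log2(TPM + 1) scale the difference was 2.77 ± 0.61 with exposure in females and -1.26 ± 0.61 in males, and -5.52 ± 0.61 for control females against control males (SE). As a description of a gene picked for this pattern, 1 of the 11389 tested genes had a larger positive difference with exposure in females, and 3 had a larger negative difference between control females and control males. The direction was the same under each alternative, with differences of 2.32 to 3.63 in females, -1.87 to -0.75 in males, -6.50 to -4.86 between control females and control males and -2.0 to -0.43 between exposed females and exposed males. The values of 3.63 and -6.50 came with a pseudocount of 0.1.

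Other measures moved with part of this pattern. Female BPAF 1, with the highest smpdl3a level of the exposed females, also had 9217 genes at 1 TPM or more, against 7506 and 7007 in the other exposed females and 7750 to 8165 in control females. Its 11 macrophage markers summed to 207 TPM, against 83.5 and 97.5 TPM in the other exposed females and 95.9 to 127 TPM in control females. In those other exposed females smpdl3a stood at 13.49 and 4.85 TPM. As deposited, their macrophage sums were within or below the control range, and fewer genes reached 1 TPM than in any control female. With each sum divided by its trimmed-mean factor (0.5979 for female BPAF 3), the macrophage sum of female BPAF 3 lay above those of all control females. None of the 11 macrophage markers was at 0 in all libraries, and the part of these cells in the levels was not tested.

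The ceramide synthase gene cers3a (ENSDARG00000078541) was the other member picked for its pattern. In mammals ceramide synthase 3 makes ceramides with very long and ultra-long acyl chains and is known from skin and testis. Control males had 1.53, 1.40 and 2.55 TPM and exposed males 3.60, 3.69 and 3.66 TPM. Control females had 0.91, 0.86 and 0.89 TPM and exposed females 2.03, 1.31 and 1.93 TPM. In TPM as deposited, exposed fish were above the controls without overlap in both sexes. Trimmed-mean factors, by which TPM are divided, were 2.193 for male BPAF 1 and 0.9942 for male DMSO 3. After this scaling male BPAF 1 lay below male DMSO 3, so the males overlapped. Among all tested genes, 9.71% were higher without overlap in exposed males and 2.35% in exposed females, and nothing is read from these shares, since the pattern chose the gene.

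The mean of cers3a was 2.0 times as high in exposed as in control males and 1.98 times as high in exposed as in control females. The log2 differences were 0.74 ± 0.22 in males, where the median of all tested genes was 0.24, and 0.54 ± 0.22 in females, where it was -0.01 (SE). With trimmed-mean scaling they were 0.39 and 0.64, and with quantile normalization 0.42 and 0.61. The difference between these responses changed sign with the scaling, from -0.20 as deposited to 0.25 and 0.20. The lower level of exposed females against exposed males was likewise -0.76 ± 0.22 as deposited, and 0.04 and 0.01 after the respective scalings.

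**Figure D2:**
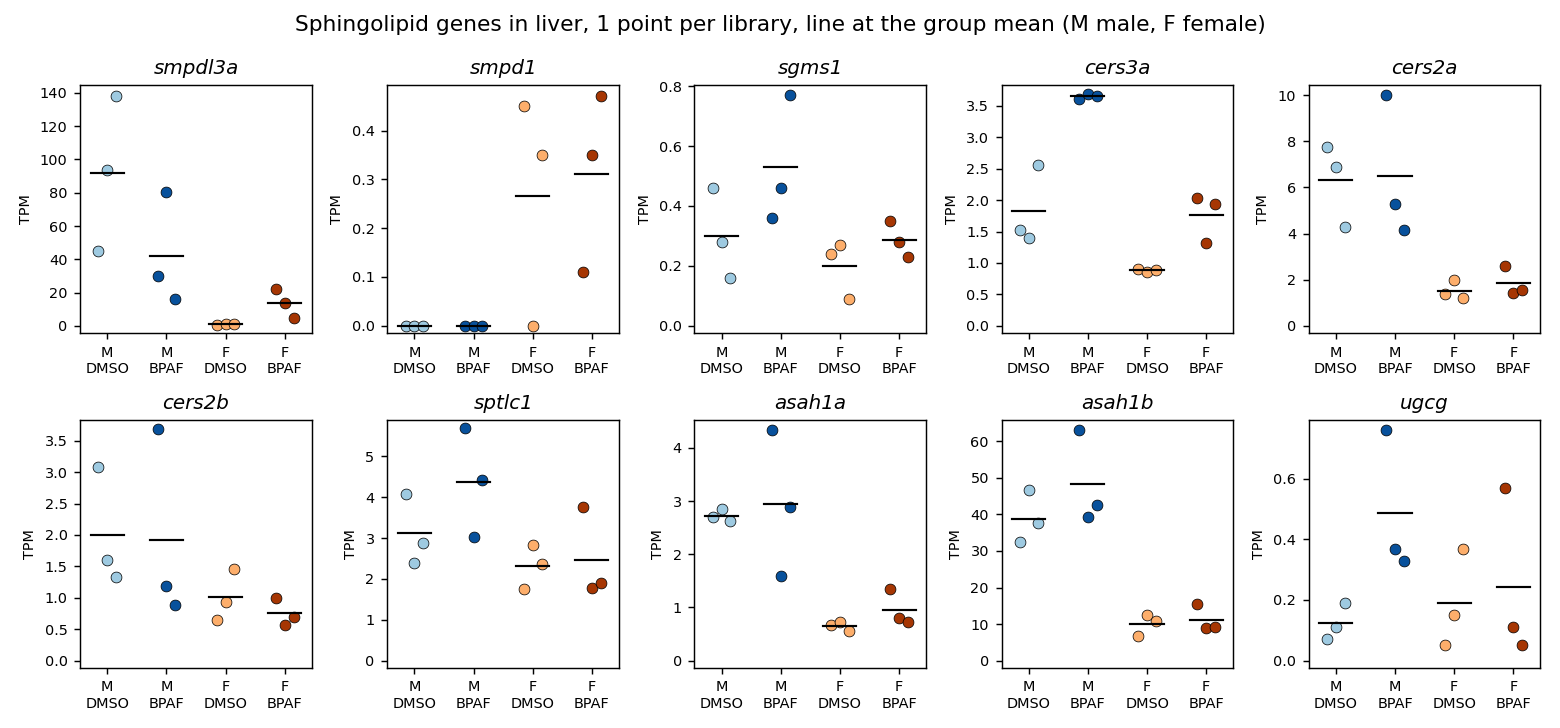
TPM of the 10 genes on linear axes, with 1 point per library and a line at each group mean. The cers3a panel shows exposed fish above controls in each sex, while asah1a, asah1b and cers2a separate the sexes in control and exposed fish alike. All values are as deposited, before any scaling.

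In males the rise of cers3a stood beside other shifts. Exposed males had 10198 to 12313 genes at 1 TPM or more and control males 9108 to 9952. The 17 intestine markers summed to 2123 to 9513 TPM in exposed and 1558 to 2663 TPM in control males, and the 12 skin markers to 59.6 to 263 and 33.8 to 104 TPM, with none of either list at 0 in all libraries. In order of replicate number, exposed males had intestine sums of 2666, 2123 and 9513 TPM and cers3a at 3.60, 3.69 and 3.66 TPM, as deposited. Divided by trimmed-mean factors of 2.193, 1.346 and 1.342, these cers3a values were no longer close, with male BPAF 1 the lowest. In females the intestine sums overlapped, at 399 to 726 TPM in exposed and 332 to 896 TPM in control fish, and so did the skin sums, at 17.9 to 42.6 and 18.7 to 49.1 TPM. The part of these tissues in the cers3a levels was not tested.

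At the first step of synthesis, sptlc1 (ENSDARG00000042995), for a subunit of serine palmitoyltransferase, did not pass in any contrast. Control and exposed males had 2.39 to 4.07 and 3.02 to 5.70 TPM, and control and exposed females 1.75 to 2.84 and 1.77 to 3.75 TPM. The groups overlapped throughout. Its log2 difference was -0.30 ± 0.29 between control females and control males (adjusted p = 0.455) and -0.65 ± 0.29 between exposed females and exposed males (adjusted p = 0.0836). The latter passed without female BPAF 1 (adjusted p = 0.03) and turned to 0.20 and 0.18 under trimmed-mean scaling and quantile normalization. Of its partner subunits, sptlc3 stood at 3.13 ± 0.89 and 3.24 ± 0.713 TPM in control males and control females (SD, n = 3 each). In the same groups sptlc2a stood at 1.89 ± 1.04 and 1.1 ± 0.217 TPM. Neither sptlc3 nor sptlc2a passed in any contrast. The small subunit gene sptssa met the filter and sptssb did not, and their values are not described. The gene sptlc2b, at 0.13 to 2.03 TPM, was under the filter.

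Of the paralogs of ceramide synthase 2, cers2a passed between the sexes and cers2b did not, and the difference between the paralogs was not tested. For cers2a (ENSDARG00000013704), control males had 7.77, 6.88 and 4.28 TPM and exposed males 10.01, 5.30 and 4.14 TPM. Control females had 1.36, 1.97 and 1.22 TPM and exposed females 2.60, 1.41 and 1.54 TPM. All 6 females lay below all 6 males. The mean was 4.16 times as high in control males as in control females, and the log2 difference was -1.52 ± 0.32 (SE, limma adjusted p = 0.00885). After trimmed-mean scaling it was -1.05 (adjusted p = 0.0147), and after quantile normalization -0.99 (adjusted p = 0.0193). Among exposed fish the log2 difference was -1.34 ± 0.32 (SE, limma adjusted p = 0.00845). That call was lost after trimmed-mean scaling (-0.47, adjusted p = 0.185) and after quantile normalization (-0.51, adjusted p = 0.153).

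For cers2b (ENSDARG00000058992), control males had 3.09, 1.60 and 1.33 TPM and control females 0.64, 0.94 and 1.46 TPM, and the sexes overlapped. The log2 difference was -0.55 ± 0.35 (SE, limma adjusted p = 0.244), beside a median of -0.52 for all tested genes. Exposed males had 3.68, 1.18 and 0.88 TPM and exposed females 0.99, 0.57 and 0.69 TPM. The highest male value belonged to replicate 1 in both treatments, for cers2b as for cers2a.

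Within each library, TPM allow the 9 ceramide synthase genes of the table to be set against each other. Together they summed to 11.3 to 24.4 TPM in males and 4.19 to 10.4 TPM in females. In control males cers2a made up 52.9%, 61.0% and 26.3% of this sum, and in control females 32.5%, 35.5% and 24.1%. The share of cers3a was 10.4%, 12.4% and 15.7% in control males and 14.7%, 21.7% and 21.4% in exposed males. In females it was 21.7%, 15.5% and 17.6% in controls and 19.6%, 29.3% and 37.8% in exposed fish. A share falls when another member of the sum rises, and the control and exposed ranges overlapped in each sex.

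**Figure D3:**
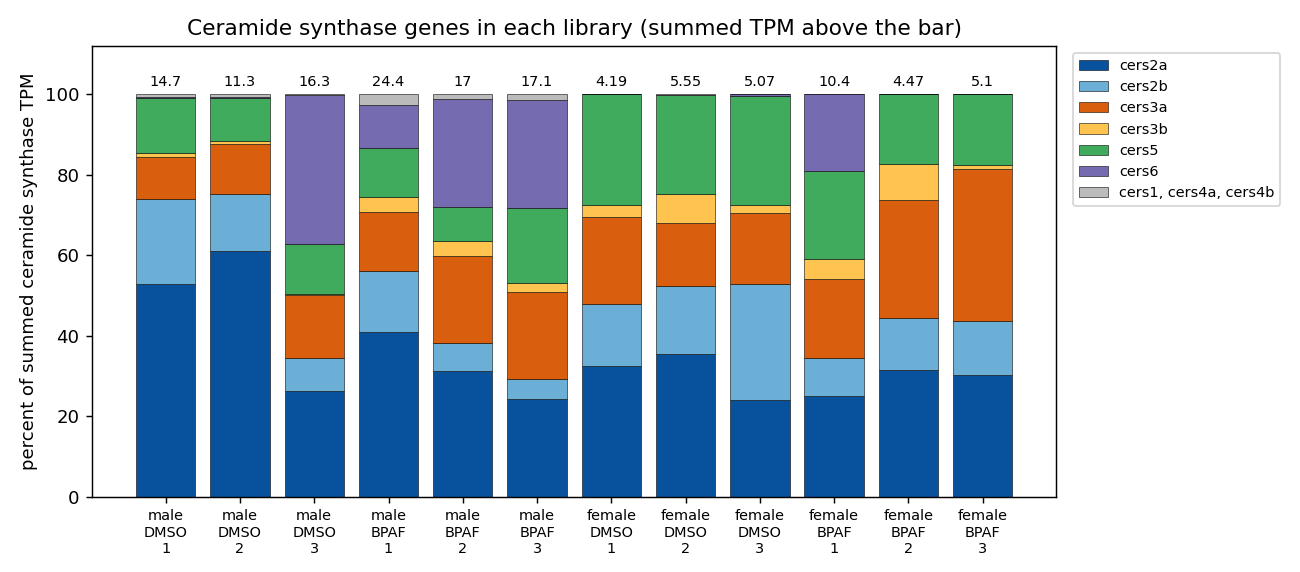
Share of each ceramide synthase gene in the summed ceramide synthase TPM of each library, in percent, with the summed TPM above the bar. The cers6 band is present in male DMSO 3, all exposed males and female BPAF 1, and almost absent elsewhere.

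The paralog cers6, whose mammalian counterpart makes ceramides with the palmitoyl chain, was the least even of these genes. It stood at 0.01, 0.03 and 6.02 TPM in control males and at 2.58, 4.58 and 4.59 TPM in exposed males. In females it was listed at 0 in 4 libraries, at 0.02 TPM in female DMSO 3 and at 1.97 TPM in female BPAF 1. It therefore took 37.0% of the ceramide synthase sum in male DMSO 3 and 0.0680% in male DMSO 1. The gene cers5 was steadier, at 1.74 ± 0.459 TPM in control males and 1.30 ± 0.124 TPM in control females (SD, n = 3 each). The genes cers1, cers3b, cers4a and cers4b stayed under the filter.

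Among the sphingomyelin genes, smpd1 (ENSDARG00000076121), for acid sphingomyelinase itself, was close to 0. It was listed at 0 in all 6 male libraries and in female DMSO 2. The other females had 0.45 and 0.35 TPM among controls and 0.11, 0.35 and 0.47 TPM after exposure. The gene was under the filter and was not tested. Its relative smpdl3b reached 2.20 TPM in male BPAF 3 and 1.81 TPM in male BPAF 1 and was at 0.45 TPM or less in the other libraries.

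The sphingomyelin synthase gene sgms1 (ENSDARG00000029621) was under the filter as well, at 0.16 to 0.77 TPM in males and 0.09 to 0.35 TPM in females. Its paralog sgms2b had 3.54, 7.84 and 0.79 TPM in control males and 0.78, 0 and 0.28 TPM in control females, where the nearest values of the sexes were 0.79 and 0.78 TPM. Its log2 difference was -1.66 ± 0.48 (SE, limma adjusted p = 0.0292), with an adjusted p of 0.0795 under trimmed-mean scaling and 0.111 under quantile normalization. All control females were under the 1 TPM of the filter, as was the lowest control male. In exposed males sgms2b stood at 1.1, 1.73 and 0.46 TPM and did not pass against control males.

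In TPM as deposited, the acid ceramidase genes did not overlap between the sexes in either treatment. For asah1b (ENSDARG00000034817), control males had 32.44, 46.57 and 37.55 TPM and exposed males 63.13, 39.29 and 42.65 TPM. Control females had 6.60, 12.53 and 10.79 TPM and exposed females 15.46, 8.81 and 9.23 TPM. The lowest male, at 32.44 TPM, was above the highest female, at 15.46 TPM. The log2 difference was -1.89 ± 0.32 among controls (SE, limma adjusted p = 0.00352) and -2.03 ± 0.32 among exposed fish (SE, limma adjusted p = 0.00185). After trimmed-mean scaling these were -1.27 (adjusted p = 0.0152) and -0.95 (0.0553), and after quantile normalization -1.07 (0.0266) and -1.01 (0.0373), so the call among exposed fish was lost under the former. Of all tested genes, 4.39% had a lower difference among controls.

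The paralog asah1a (ENSDARG00000037091) was about an order of magnitude lower. It stood at 2.70, 2.85 and 2.63 TPM in control males and 0.66, 0.73 and 0.55 TPM in control females. Exposed males had 4.34, 1.59 and 2.88 TPM and exposed females 1.35, 0.80 and 0.72 TPM, again without overlap between the sexes as deposited. The gene met the filter through the male libraries, since among females only female BPAF 1 reached 1 TPM. Trimmed-mean factors were 1.346 for male BPAF 2 and 0.9337, 0.6694 and 0.5979 for the exposed females. Divided by these, male BPAF 2 lay below all 3 exposed females, so the exposed sexes overlapped. The log2 difference was -1.18 ± 0.26 among controls (SE, limma adjusted p = 0.0110) and -0.96 ± 0.26 among exposed fish (SE, limma adjusted p = 0.0138). After trimmed-mean scaling these were -0.83 (adjusted p = 0.0231) and -0.26 (0.402), and after quantile normalization -0.76 (0.0299) and -0.23 (0.44). The call among exposed fish was also lost with only the 6 libraries compared (adjusted p = 0.0567). The ratio of asah1b to asah1a TPM within a library was 12 to 24.7 in males and 10.0 to 19.6 in females, and these ranges overlapped.

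The glucosylceramide synthase gene ugcg (ENSDARG00000058221) was low in all libraries and was not tested. It had 0.07, 0.11 and 0.19 TPM in control males and 0.76, 0.37 and 0.33 TPM in exposed males. These did not overlap, as for 9.71% of all tested genes that were higher in exposed males. That share covers genes that met the filter, which ugcg did not. Control females had 0.05, 0.15 and 0.37 TPM and exposed females 0.57, 0.11 and 0.05 TPM.

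Counted together, 3 of the 5 tested members (cers2a, asah1a and asah1b) were lower in control females than in control males, where 23.3% of all tested genes were called, 21.2% lower and 2.1% higher. Of these 3, asah1a met the filter only through the male libraries, and the members were chosen with earlier results of these data known. The control groups did not overlap for these 3 genes, as for 40.8% of all tested genes that were lower in females. The same 3 genes passed under each of the 19 alternatives for this contrast, both scalings included, with adjusted p of at most 0.0420. Under trimmed-mean scaling the background was 433 genes higher and 571 lower. Among exposed fish the same 3 members were lower, beside 45.7% of all tested genes lower, 1.91% higher and 47.6% in all. In TPM as deposited their groups did not overlap, as for 54% of all genes. The call among exposed fish was lost for all 3 with trimmed-mean scaling (-0.47 for cers2a, adjusted p = 0.185). There 396 genes were higher and 249 lower. With quantile normalization asah1b passed and cers2a, at -0.51 (adjusted p = 0.153), and asah1a did not. Without female BPAF 3, asah1a missed the threshold (adjusted p = 0.0537). The 2655 genes called among controls fell to 909 without female DMSO 1, 1591 without female DMSO 3, 1277 without male DMSO 1 and 1447 without male DMSO 2. The 5424 called among exposed fish fell to 2919 without female BPAF 3 and 3114 without male BPAF 1.

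**Figure D4:**
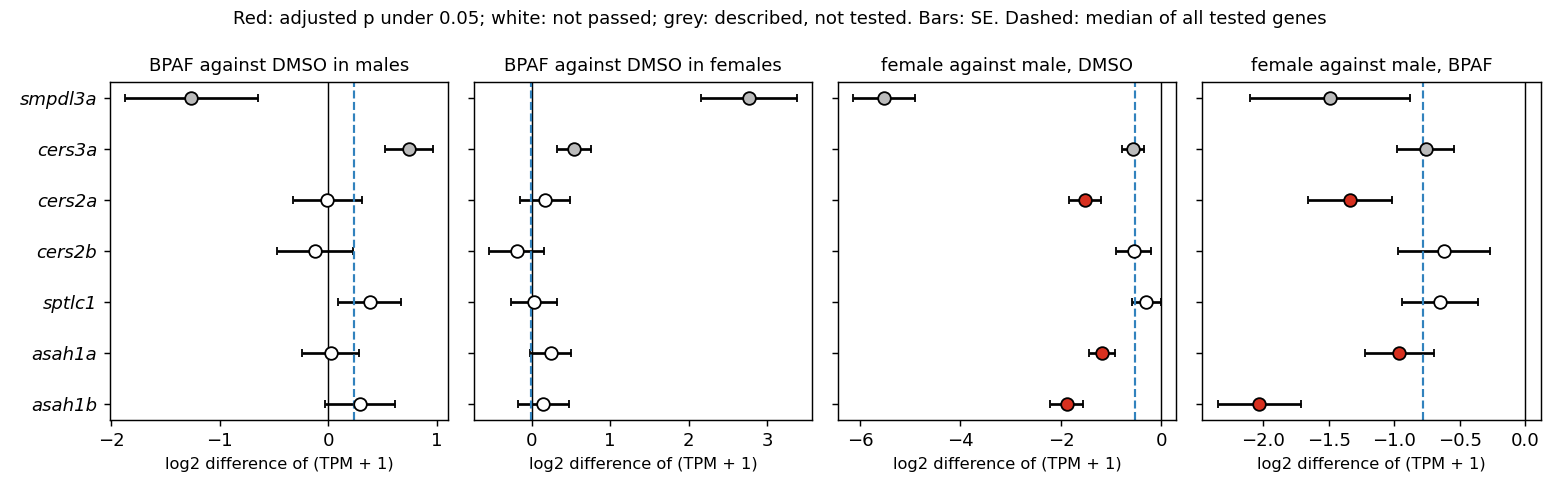
Log2 differences of the 7 genes that met the filter, with SE, in 4 contrasts, each panel with its own axis range. Red points passed, white points did not, grey points were described without a test, and the dashed line marks the median of all tested genes. The points of cers2a, asah1a and asah1b lie left of the dashed line in both comparisons of the sexes, and the tested members lie near 0 with exposure.

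With exposure, 0 of the 5 tested members passed by limma in males, where 0.0527% of all genes were called, and 0 passed in females, where 0% were called. At an unadjusted p under 0.05 the numbers of these members were 0 and 0, beside 6.34% and 1.38% of all genes. In males the log2 differences were 0.38 ± 0.29 for sptlc1, -0.01 ± 0.32 for cers2a, -0.12 ± 0.35 for cers2b, 0.02 ± 0.26 for asah1a and 0.29 ± 0.32 for asah1b, against a median of all genes of 0.24. After trimmed-mean scaling they were 0.04, -0.36, -0.37, -0.28 and -0.13 in this order, so the sign for asah1a and asah1b changed, beside a median of -0.07. In females they were 0.03 ± 0.29, 0.17 ± 0.32, -0.19 ± 0.35, 0.24 ± 0.26 and 0.15 ± 0.32 in the same order (SE). The difference between the responses of the sexes was called in 0 of the 5, with 0 at an unadjusted p under 0.05, beside 0% and 3.23% of all genes. The 6 genes called in males over the whole table became 2 with the replicate number as a block within each sex and 1 with a common block. Leaving out 1 library gave 0 to 5 genes, with 0 without male DMSO 1 or without male DMSO 2. These contrasts share the control libraries of each sex with the comparisons between the sexes.

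Of 84 other genes of the sphingolipid lists found in the table, 50 were tested. These lists took in genes of wider lysosomal function, npc2 and ctsa among them. Between control females and control males 13 of the 50 were lower (26.0%) and 1 was higher, beside 21.2% and 2.1% of all genes, and the median difference was -0.65 beside -0.52. The share of lower genes was near the background. The number called, 14, was 3 under trimmed-mean scaling and 3 under quantile normalization (2 higher and 1 lower in both), 4 with no filter, 3 without female DMSO 1, 7 without female DMSO 2, 5 without female DMSO 3, 3 without male DMSO 1 and 6 without male DMSO 2. Among exposed fish 32 of 50 were lower (64.0%) and 1 higher, beside 45.7% and 1.91%. That number, 33, was 4 under either scaling and 18 without female BPAF 3 or without male BPAF 1.

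Lysosomal breakdown held 7 of the 13 lower genes, out of 16 tested, beside 21.2% of all genes lower. Under trimmed-mean scaling and under quantile normalization 1 of the 16 was lower. Among markers, the 11 macrophage genes summed to 201 to 350 TPM in control males and 95.9 to 127 TPM in control females. None was at 0 in all libraries, and these sums did not overlap as deposited. Divided by trimmed-mean factors of 1.334 and 0.7938, male DMSO 1 (210 TPM) lay below female DMSO 3 (127 TPM), so they overlapped. In exposed males and exposed females the macrophage genes summed to 199 to 393 and 83.5 to 207 TPM as deposited. The part of these cells in the levels of the lysosomal genes, asah1a and asah1b included, was not tested. The lysosomal sterol carrier gene npc2 stood at 224 ± 69.3 TPM in control males and 42.9 ± 20.5 TPM in control females (SD, n = 3 each). Its log2 difference of -2.43 ± 0.39 (SE, limma adjusted p = 0.00279) was -1.78 under trimmed-mean scaling and still passed (adjusted p = 0.0124). The gene ctsa, for cathepsin A, a partner of lysosomal galactosidase and neuraminidase, stood at 25.4 ± 5.40 and 8.91 ± 1.06 TPM (adjusted p = 0.00880). The hexosaminidase subunit gene hexa stood at 6.39 ± 1.5 and 2.28 ± 0.888 TPM (adjusted p = 0.0167). Neither ctsa (adjusted p = 0.134) nor hexa (0.180) passed under trimmed-mean scaling. The saposin precursor gene psap, whose products assist acid ceramidase and other lysosomal hydrolases, was among the 7, at 110 ± 21.6 and 64.0 ± 4.70 TPM (adjusted p = 0.0485), and its difference under trimmed-mean scaling was -0.11.

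**Figure D5:**
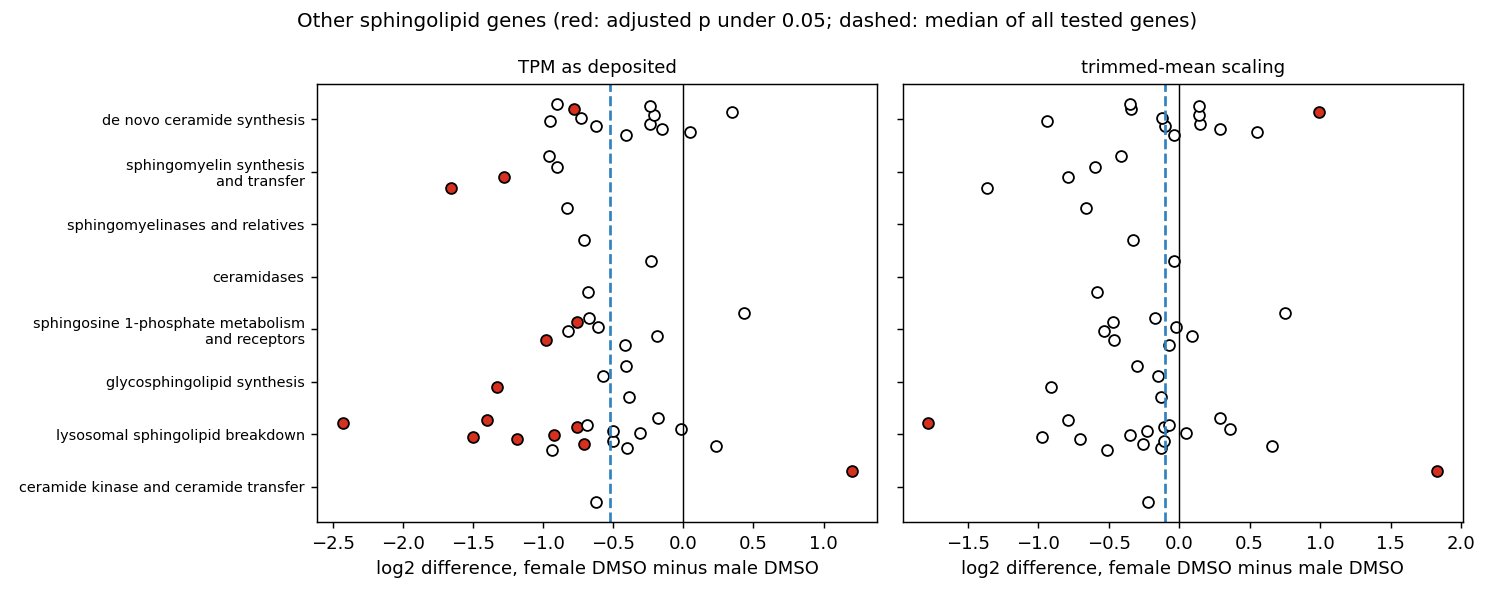
Log2 differences between control females and control males for the 50 other tested genes of the sphingolipid lists, by role, with values as deposited on the left and after trimmed-mean scaling on the right. Red points passed and the dashed line marks the median of all tested genes, and 3 points are red after scaling against 14 before.

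The 1 higher gene was listed as si:ch73-269m23.5 and is named gltpd2a, for a protein with a glycolipid transfer domain, in a separate gene name table. It stood at 14.3 ± 2.88 TPM in control males and 34.2 ± 6.24 TPM in control females, and at 12.7 ± 4.85 and 29.5 ± 3.79 TPM in exposed males and exposed females (SD, n = 3 each). The log2 difference was 1.2 ± 0.29 in either treatment (SE, limma adjusted p = 0.0153 and 0.00843), and 1.83 and 2.27 under trimmed-mean scaling (adjusted p = 0.00446 and 0.00115). The ceramide synthesis regulator gene ormdl1 did not pass as deposited (36.6 ± 7.48 TPM in control females against 28.2 ± 4.09 in control males) and was the other gene higher under trimmed-mean scaling (adjusted p = 0.0474). In the remaining lists, ormdl2, sgms2b, samd8, sgpl1, spns2 and ugt8 were lower among control females, with adjusted p of 0.0281, 0.0292, 0.028, 0.0286, 0.0237 and 0.036, and they are named after their values were seen. None of these 6 passed under trimmed-mean scaling.

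Among exposed fish the smallest adjusted p on the lower side belonged to ctsa, at 48.4 ± 10.1 TPM in males and 8.90 ± 3.52 TPM in females (adjusted p = 0.000924). Next were sgpl1, for the lyase that ends sphingosine 1-phosphate, at 10.4 ± 2.41 and 2.58 ± 0.757 TPM (0.00224), npc2 (0.00247) and the galactosylceramidase gene galcb, at 5.13 ± 0.800 and 1.65 ± 0.244 TPM (0.00265, SD, n = 3 each). Of these, ctsa passed under trimmed-mean scaling (adjusted p = 0.0413), while sgpl1, npc2 and galcb did not (0.105, 0.0759 and 0.223). With exposure, 0 of the 50 genes passed by limma in males and 0 in females. At an unadjusted p under 0.05 there were 12 in males (24.0%, beside 6.34% of all genes) and 0 in females (beside 1.38%). In males 45 of the 50 had a positive difference (90.0%, beside 80.2% of all genes), with a median of 0.40 beside 0.24 for all genes. That median was 0.09 after trimmed-mean scaling and 0.11 after quantile normalization, beside -0.07 and -0.01. In females 20 of 50 were positive (40.0%, beside 47.8%), with a median of -0.03 beside -0.01.

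Fatty acid elongation supplies the acyl chains that ceramide synthases use. Of 11 tested genes, 4 were lower in control females and 0 higher, beside 21.2% of all genes lower, and 0 were lower under trimmed-mean scaling. The dehydratase gene hacd2 had the smallest p, at 93.6 ± 28.0 TPM in control males and 45.7 ± 6.69 TPM in control females (SD, n = 3 each, limma adjusted p = 0.0224). The gene elovl1b, whose mammalian counterpart lengthens saturated very long chains, stood at 10.9 ± 3.40 and 4.15 ± 1.63 TPM (adjusted p = 0.0425). In exposed males and exposed females it stood at 16.2 ± 4.58 and 4.04 ± 2.64 TPM. The other genes lower among controls were elovl8b and elovl6 (adjusted p = 0.0241 and 0.0493). Among exposed fish elovl1b, elovl8b and hacd2 were lower (adjusted p = 0.00516, 0.00594 and 0.0073), 3 of 11 beside 45.7% of all genes, and 0 under trimmed-mean scaling.

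Since SMPDL3A is known as an LXR target in human macrophages, the LXR gene nr1h3 and its known targets were read beside smpdl3a. Of 8 tested, 0 passed with exposure in males or in females, beside 0.0527% and 0% of all genes. At an unadjusted p under 0.05 there were 1 and 0, beside 6.34% and 1.38%. Their median difference with exposure was -0.09 in females, beside -0.01 for all genes, and the part of LXR in the level of smpdl3a was not tested. The receptor gene nr1h3 stood at 8.53 ± 2.79 TPM in control males and 5.45 ± 2.50 TPM in control females, and the sterol exporter gene abca1a at 17.9 ± 5.79 and 11.9 ± 6.17 TPM (SD, n = 3 each). The lipogenic regulator gene srebf1 was the 1 gene of the list called among controls, higher in females (3.01 ± 1.89 against 0.483 ± 0.192 TPM, SD, n = 3 each, limma adjusted p = 0.0489, and 0.0371 under trimmed-mean scaling). The mean of control males was under the 1 TPM of the filter, and the adjusted p as deposited lay close to the threshold. Among exposed fish 5 of the 8 were lower in females, beside 45.7% of all genes, with the smallest p for the phospholipid remodelling gene lpcat3 (adjusted p = 0.00392), pltp (0.00611) and the sterol transporter genes abcg5 (0.0212) and abcg8 (0.0224), and 0 of the 8 under trimmed-mean scaling.

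Genes with the most similar profile over the 12 libraries were ranked by Pearson correlation of log2(TPM + 1) among 9050 tested genes with a descriptive symbol. The libraries share sex and scaling, so these values are a description. Most like smpdl3a were ccl25b (r = 0.907), selenow1 (0.905), icn (0.891), ccbe1 (0.890) and cp (0.884). The chemokine gene ccl25b had 38.58, 37.03 and 71.97 TPM in control males and 1.60, 3.55 and 5.77 TPM in control females. In exposed females it had 10.60, 7.51 and 6.82 TPM, above all control females, as for 2.35% of all tested genes. Nothing is read from this share, since ccl25b was ranked by its likeness to smpdl3a, a gene picked for its pattern. In exposed males ccl25b had 74.95, 43.01 and 24.54 TPM. Its range between the control groups was narrower than that of smpdl3a.

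Most like cers3a were cyp2k18 (r = 0.910), rffl (0.910), aldh3a2a (0.900), actn1 (0.899) and sfrp1a (0.898). The gene aldh3a2a, for the fatty aldehyde dehydrogenase that handles the product of sphingosine 1-phosphate lyase in mammals, was also in the sphingolipid lists. It had 5.71, 4.02 and 4.70 TPM in control males and 10.75, 8.61 and 7.14 TPM in exposed males. Control females had 2.44, 2.30 and 3.16 TPM and exposed females 5.06, 2.33 and 3.87 TPM. Exposed and control males did not overlap, as for 9.71% of all tested genes that were higher in exposed males. Nothing is read from this share, since aldh3a2a was ranked by its likeness to cers3a, a gene picked for its pattern. The females did overlap, and aldh3a2a did not pass with exposure in either sex.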

How the data were processed

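The deposited table holds 1 value per gene and library, taken as TPM made by the authors: the header names no unit, but the listed genes sum to 978504.61 to 992375.41 per library. The submitters' processing notes name RSEM, Cufflinks and HISAT2 2.1.0, with no role or order. No genome build was found in the labels or header, so no coordinates are printed. TPM keep no depth, so depth is unknown and no counting interval was computed. The 4 columns of group means deposited by the authors were not used, and 0 columns remained unassigned.

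The fit used limma 3.58.1 under R 4.3.3 on log2(TPM + 1) (intensity trend, a mean per group, all 12 libraries, 8 residual degrees of freedom), for genes at 1 TPM or more in at least 3 libraries, with Benjamini-Hochberg adjustment over 11389 genes. The procedure was run on simulated data, with known changes set in genes of higher level in exposed females and independent noise per gene. That run had no difference in scale between exposed and control females, so it cannot speak to the effect of scaling or to genes near the filter. Trimmed-mean factors left out 30% of log ratios and 5% of mean levels on each side. Reads shared by near-identical paralogs, such as cers2a with cers2b or asah1a with asah1b, could be split between them in a way that no label or header states.

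Members and gene lists were chosen with earlier results of these data known. Named are all members, most of their listed partner subunits and paralogs, up to 4 list genes per direction and contrast by smallest p, and the 5 genes most like smpdl3a and cers3a. List genes were matched by the table's symbols or, for a few, a separate gene name table. Marker lists of 8 tissues and cell types were summed; of those not described with a result, exocrine pancreas sums ranged from 130 to 699 TPM, testis from 11.7 to 89.9, ovary and germline from 0.41 to 191 and erythrocyte from 282 to 2329. Same-numbered males deviated together (correlations of 0.327, 0.347 and 0.376), so male replicate numbers were also read as pairs. No label states this pairing, and the main fit does not use it.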

Additional observations from a re-analysis of the deposited data

Results flagged for a closer look

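The mean response of smpdl3a to BPAF differed in direction between the sexes, by 4.03 on the log2(TPM + 1) scale (females minus males). Every exposed female lay above the mean of control females, by 3.65, 2.98 and 1.67, and every exposed male lay below the mean of control males, with deviations of -1.45, -0.06 and -2.29. The difference was not tested, since the gene was picked for this pattern. The third female value belongs to the library with the lowest smpdl3a level after exposure, and the deviation of male BPAF 2 was close to 0. The deviation of -2.29 belongs to male BPAF 3, whose intestine markers summed to 9513 TPM, against 1558 to 2666 TPM in the other males. The part of gut tissue in the smpdl3a levels was not tested. Exposed and control males overlapped, with a difference of -1.26 ± 0.61, beside 2.77 ± 0.61 in females (SE).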

How the results depend on the processing

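The call of 3 tested members between control females and control males held under all 19 alternatives, though asah1a met the filter only through the male libraries. The counts of 0 tested members with exposure and for the difference between the sexes' responses held under all of theirs. Among exposed fish the member count of 3 was 0 after trimmed-mean scaling, 1 after quantile normalization, and 2 to 4 when a library was left out. Genes called in males, 6 in all, were 1 with a pseudocount of 0.1, the replicate block, trimmed-mean scaling or quantile normalization, 2 with the replicate block within each sex (added after seeing the data), 73 with no filter, 0 with only the 6 male libraries and 0 to 5 with a library left out. In females the 0 genes became 3 with no filter and stayed at 0 with a library left out. For the difference between the responses, 0 became 1 with a pseudocount of 0.1, 12 with no filter and 0 to 1 with a library left out. Between control females and control males, 2655 became 1004 after trimmed-mean scaling, 890 after quantile normalization, 1639 with no filter and 909 to 3199 with a library left out. Among exposed fish, 5424 became 645 and 678 under these scalings and 2919 to 5412 with a library left out. Female replicate numbers shared only a number (correlations of 0.226, 0.053 and 0.104, and female DMSO 3 deviated most like female BPAF 2), and no replicate block moved another of these counts by over 1.5 times. Levels near 1 TPM or below, such as those of smpd1, sgms1 and ugcg, and of smpdl3a in control females, are limited by an unknown depth.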

Other observations

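Genes of sphingolipid digestion known from the mammalian gut were uneven among males. The intestinal alkaline sphingomyelinase gene enpp7.1 stood at 2.13, 0 and 2.93 TPM in control males and 2.32, 2.39 and 14.77 TPM in exposed males. The neutral ceramidase gene asah2 stood at 1.05, 0.02 and 1.51 TPM in control males and 2.44, 0.13 and 5 TPM in exposed males. Both were highest in male BPAF 3, where the 17 intestine markers summed to 9513 TPM against 1558 to 2666 TPM in the other males. Male DMSO 1, with the lowest male sum of 1558 TPM, had more of both genes than male DMSO 2, with 1811 TPM. In females enpp7.1 reached 0.93 TPM and asah2 0.27 TPM, both in female DMSO 2, the female library with the highest intestine sum, 896 TPM. The part of gut tissue in the levels of these 2 genes was not tested.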
